A study of Rattus norvegicus with 12 samples.

Results

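The genes described here encode the CB1 cannabinoid receptor, a protein that binds its tail, and the enzymes that make and break down endocannabinoids. They were chosen by name as *Cnr1*, *Cnrip1*, *Dagla*, *Daglb*, *Napepld*, *Faah*, *Mgll*, *Abhd6* and *Abhd12*, and all 9 were found among the 37209 genes listed in the count table. Their mRNA was measured by poly-A RNA-Seq in punches of the central nucleus of the amygdala (CeA), with 1 library per rat. All animals were male wild type Sprague Dawley rats, 14 to 16 weeks old. The 6 rats of the CIE group (rats 1 to 6) had gone through weeks of chronic intermittent ethanol vapor and were sampled when their final vapor session ended, and the 6 Control rats (rats 7 to 12) had breathed air throughout. The names of all 12 libraries carry the letters CIE, those of the Control rats too, and the groups were taken from the treatment label. The tissue was not taken after withdrawal, and a punch holds every cell type of the region, so fewer cells of a type and less RNA per cell cannot be told apart in any value below.

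Endocannabinoids are lipid messengers that are made on demand in the postsynaptic membrane and travel backwards across the synapse. There they bind CB1, a receptor coupled to inhibitory G proteins, which lowers the release of GABA or glutamate from the presynaptic terminal. The main messengers are 2-arachidonoylglycerol (2-AG) and anandamide. The diacylglycerol lipases DAGL alpha (*Dagla*) and DAGL beta (*Daglb*) form 2-AG, and monoacylglycerol lipase (*Mgll*), ABHD6 and ABHD12 hydrolyze it. NAPE-PLD (*Napepld*) forms anandamide, and fatty acid amide hydrolase (*Faah*) degrades it.

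Promoter sequences of these genes were described apart from their measured levels. RefSeq windows (build GRCr8) were found for 7 of the 9 genes, all but *Cnr1* and *Dagla*, and the 250 bases before the annotated start were examined. All 7 were richer in G and C than the median of 33469 such windows, with 56.4% to 77.2% against 51.2%, and held 9 to 29 CpG dinucleotides against a median of 5. The GC box GGGCGG, read on both strands, was present in 5 of the 7 windows and in 30.5% of all windows, and *Napepld* alone had 8 copies. CCAAT was present in the windows of *Mgll*, *Abhd6* and *Abhd12* and in 11385 of the 33469 windows, TATAAA in that of *Daglb* and in 12.9% of all windows, and CACGTG in those of *Mgll* and *Abhd12* and in 5.59% of all windows. A match describes the letters and not a site in use. The windows of *Abhd6*, the member with the smallest p value below, and of *Mgll*, the member that varied most between rats, are shown 5′ to 3′ with these motifs in capitals on either strand. The first lies on the minus strand at chr15:19337194-19337443 and the second on the plus strand at chr4:122749186-122749435.
Abhd6: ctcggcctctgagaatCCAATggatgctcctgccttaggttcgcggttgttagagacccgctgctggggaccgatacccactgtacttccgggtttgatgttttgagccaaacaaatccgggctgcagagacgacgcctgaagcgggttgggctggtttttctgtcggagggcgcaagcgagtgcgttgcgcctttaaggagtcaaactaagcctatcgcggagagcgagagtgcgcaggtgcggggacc
Mgll: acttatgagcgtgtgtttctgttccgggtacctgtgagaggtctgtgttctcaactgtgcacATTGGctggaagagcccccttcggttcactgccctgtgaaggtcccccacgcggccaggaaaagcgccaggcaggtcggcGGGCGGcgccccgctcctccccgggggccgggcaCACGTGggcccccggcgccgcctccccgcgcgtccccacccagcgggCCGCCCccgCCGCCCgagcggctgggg
The *Mgll* window carries 3 GC boxes, 1 CCAAT box on the opposite strand and 1 CACGTG element, whereas that of *Abhd6* carries a single CCAAT box.

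Before the comparison, the make-up of the punches was examined with marker lists. Total counts lay between 39082548 and 95647601 per rat. Central amygdala markers were detected in all rats, 8 of 8, with a summed level of 291 to 574 CPM (counts scaled to a common library size after TMM normalization) in the CIE group and 393 to 621 CPM in the Control group. The 9 striatal projection neuron markers summed to between 284 and 4051 CPM, and their mean log2 level was highest in CIE rats 2 and 4 and Control rat 10. The 9 markers of cortical and basolateral glutamatergic neurons all had positive log2 fold changes, 3 of them at a nominal p value below 0.05, and summed to 120 to 732 CPM in the CIE group against 110 to 302 CPM in the Control group. The list of 10 myelinating oligodendrocyte markers held 9 with a negative log2 fold change at a nominal p value below 0.05, and summed to 5551 to 13536 CPM with CIE against 8538 to 15973 CPM with air. Of the central amygdala markers, 6 of 8 had a negative log2 fold change, 2 of them (*Nts* and *Crh*) at a nominal p value below 0.05. Of 8 endothelial markers 7 were negative, 5 of them nominally and *Kdr* at 5% FDR, and 1 was positive and nominal, with a median of -0.27 and sums of 223 to 282 CPM with CIE against 240 to 303 CPM with air. The part of these differences in the results below was not tested beyond the fits that are given beside them.

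The comparison of the CIE and Control groups asked whether chronic ethanol vapor went along with other mRNA levels of the endocannabinoid genes. All 9 passed the filter on low counts. None of them reached 5% FDR in edgeR's quasi-likelihood test over 20944 genes, nor in DESeq2 or limma-voom, whereas 0.363% of all genes did in edgeR. At a nominal p value below 0.05 the count was 1 of 9, *Abhd6*, against 8.31% of all genes. The log2 fold changes (log2FC, CIE over Control) lay between -0.079 (*Abhd12*) and 0.21 (*Abhd6*), 7 of them positive, against 50.3% of all genes, and 2 negative. Their median absolute value was 0.11, the same as over all genes tested (0.11). In this fit the 95% intervals reached from a fold of 0.838 at the lowest (*Cnrip1*) to a fold of 1.43 at the highest (*Mgll*). With the oligodendrocyte marker level as a covariate they reached farther, to a log2FC of -0.46 for *Cnrip1* and 0.66 for *Mgll*. Read counts did not limit these values, since every member had at least 718 counts in every rat.

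**Figure D1:**
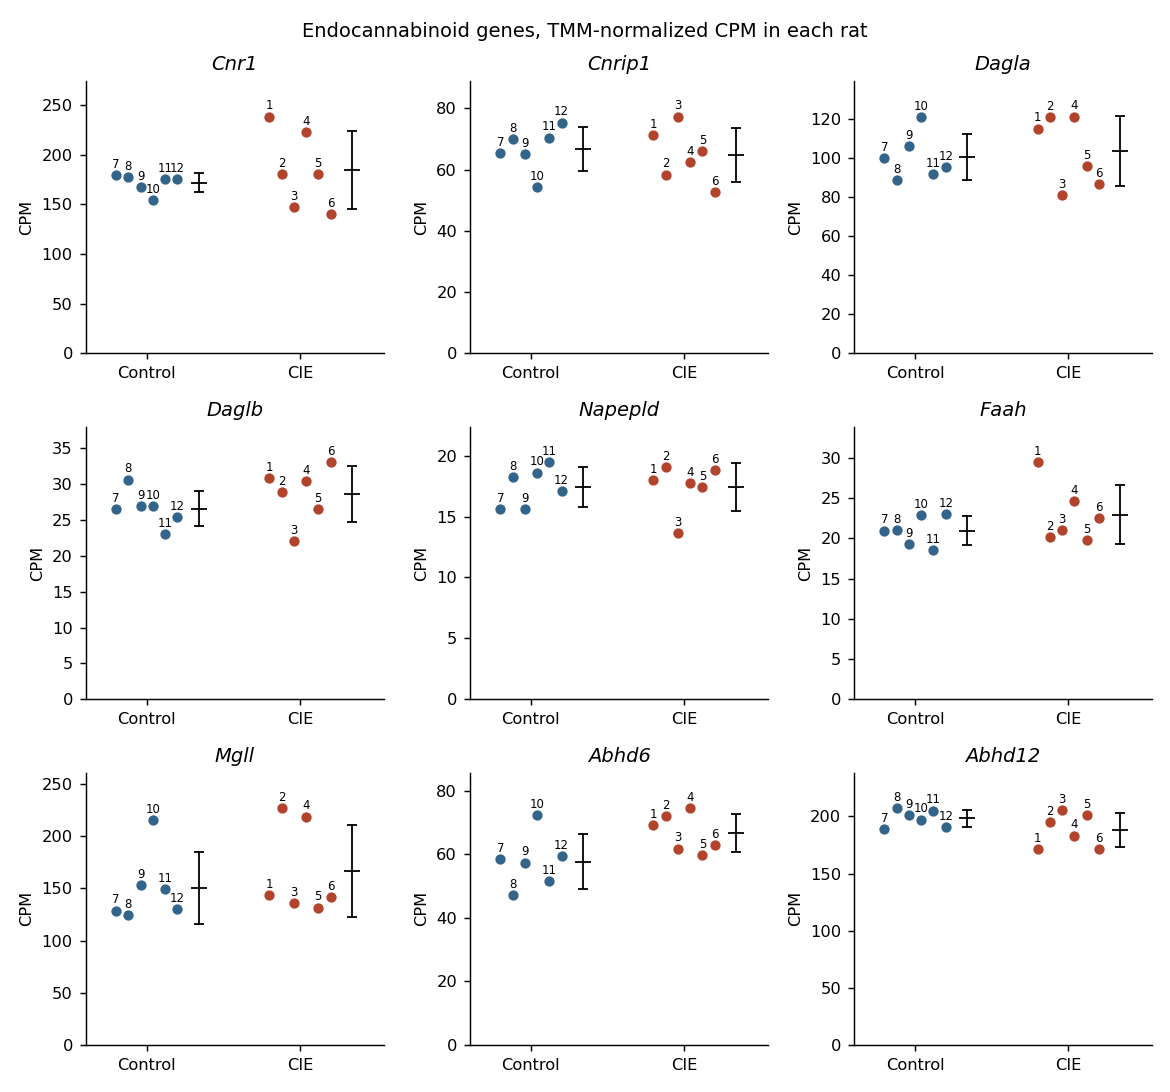
TMM-normalized CPM of the 9 endocannabinoid genes in each rat, with the Control group in blue and the CIE group in red, rat numbers above the points, and group mean ± SD as black bars. The groups overlap in every panel, *Cnr1* is spread more widely in the CIE group, and CIE rats 2 and 4 and Control rat 10 stand apart in *Mgll*.

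*Cnr1* encodes CB1, the receptor through which both messengers act on terminals. In CIE rats 1 to 6 it was at 238, 181, 147, 223, 181 and 140 CPM, and in Control rats 7 to 12 at 180, 178, 167, 154, 176 and 176 CPM. The Control values lay close together, and the CIE values lay around them, 4 above every Control rat, although 2 of these only just, and 2 below every Control rat. The mean was 185 ± 39.5 CPM for CIE and 172 ± 9.64 CPM for Control (SD, n = 6 each). The exact permutation test of the group means of log2 CPM gave p = 0.517. The log2FC was 0.11 (SE 0.12, 95% interval -0.15 to 0.36, FDR = 0.866). It was 0.021 without CIE rat 1 and 0.047 without CIE rat 4, and 0.16 without CIE rat 3 and 0.18 without CIE rat 6. The SD in the CIE group was 4.09 times that in the Control group. On the log2 scale the ratio of SDs was 3.69, a value that 1.61% of all genes reached or passed, and 1.28% of all genes had their CIE rats on both sides of the Control range with none inside it. This spread was noticed in the data and was not tested.

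*Cnrip1* encodes the cannabinoid receptor interacting protein, which binds the intracellular tail of CB1. It lay between 52.6 and 77.3 CPM in the CIE group (median 64.3) and between 54.2 and 75.3 CPM in the Control group (median 67.6). The ranges covered nearly the same interval, with CIE rat 6 and Control rat 10 at their lower ends. The log2FC was -0.045 (SE 0.097, FDR = 0.937).

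The synthesis genes did not separate the groups. *Dagla*, which encodes the main 2-AG-forming enzyme of adult neurons, was between 80.9 and 121 CPM in the CIE group (median 106) and between 88.9 and 121 CPM in the Control group (median 97.8). Its log2FC was 0.041 (SE 0.11, 95% interval -0.20 to 0.28, FDR = 0.951). CIE rats 2 and 4 and Control rat 10 had nearly equal values at the top of both ranges. *Daglb*, the related lipase that is better known from microglia and macrophages, was between 22.1 and 33.1 CPM in the CIE group (median 29.7) and between 23.0 and 30.6 CPM in the Control group (median 26.7). The log2FC was 0.11 (SE 0.095, FDR = 0.826). CIE rat 3 had the lowest *Daglb* of all rats, and without it the log2FC was 0.17, with a nominal p value below 0.05 (FDR = 0.363). The same held for a log2FC of 0.28 with the oligodendrocyte marker level as a covariate (FDR = 0.364). Other fits gave smaller values, 0.023 with the glutamatergic marker level as a covariate (FDR = 0.991), 0.063 without CIE rat 6 and 0.068 without Control rat 11. *Napepld* was between 13.6 and 19.1 CPM in the CIE group (median 17.9) and between 15.6 and 19.5 CPM in the Control group (median 17.6), which gave a log2FC of 0.0026 (SE 0.090, 95% interval -0.19 to 0.20, FDR = 0.997). CIE rat 3 was again the lowest, below every other rat.

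Among the breakdown genes, *Abhd6* had the largest difference. ABHD6 is a membrane-bound hydrolase that removes 2-AG on the postsynaptic side, close to where it is made. *Abhd6* was at 69.2, 72.0, 61.8, 74.6, 59.9 and 62.9 CPM in CIE rats 1 to 6 and at 58.4, 47.2, 57.4, 72.3, 51.5 and 59.5 CPM in Control rats 7 to 12. All 6 CIE rats were above the Control median, but Control rat 10 was higher than 5 of them, so the groups overlapped. The mean was 66.7 ± 6.01 CPM for CIE and 57.7 ± 8.56 CPM for Control (SD, n = 6 each). The exact permutation test of the group means of log2 CPM gave p = 0.0498. The log2FC was 0.21 (SE 0.095, 95% interval 0.0053 to 0.41), which passed a nominal p value of 0.05 but not adjustment over all genes (FDR = 0.590).

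The nominal call of *Abhd6* was not stable. When 1 rat at a time was omitted, the log2FC stayed between 0.16 and 0.29, but the nominal p value was below 0.05 in only 4 of these 12 fits. The call was lost without CIE rat 1 (log2FC 0.20), 2 (0.19) or 4 (0.17) and without Control rat 7 (0.21), 8 (0.16), 9 (0.21), 11 (0.18) or 12 (0.22). The highest value, 0.29, was that without Control rat 10 (FDR = 0.185). Of 11 other fits, 9 kept a nominal p value below 0.05. Among these were DESeq2 (log2FC 0.22, FDR = 0.469), limma-voom with sample quality weights (0.29, FDR = 0.109) and 1 surrogate variable (0.15, FDR = 0.376). The fits that lost it, with the glutamatergic and oligodendrocyte marker levels as covariates, follow below. Across the 12 rats, *Abhd6* also followed the markers of glutamatergic neurons, with r = 0.77 (permutation p = 0.00338, 0.0586 adjusted over 90 relations) and rho = 0.73 (permutation p = 0.00840, adjusted 0.151), and r = 0.70 without the 2 rats farthest from the median. Within the groups r was 0.89 in the CIE and 0.66 in the Control rats. With the mean log2 level of these markers as a covariate the log2FC of *Abhd6* was 0.10 (SE 0.081, FDR = 0.920), and with that of the oligodendrocyte markers it was 0.16 (SE 0.13, FDR = 0.657), both above a nominal p value of 0.05. Over the 9 rats that are left without CIE rats 2 and 4 and Control rat 10, the relation to the glutamatergic markers had an r of 0.59 (exact permutation p = 0.116, 0.533 adjusted over 90 relations), and the log2FC was 0.22 (SE 0.082, FDR = 0.640), below a nominal p value of 0.05. *Abhd6* also followed the striatal markers, with r = 0.77 within the CIE and 0.83 within the Control rats, but over these 9 rats r was 0.51 (exact permutation p = 0.156, adjusted 0.533). With the striatal marker level as a covariate the log2FC was 0.16 (SE 0.066, FDR = 0.397), below a nominal p value of 0.05.

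*Mgll* encodes the enzyme that hydrolyzes most 2-AG in the brain, largely in presynaptic terminals and glia. It was at 143, 227, 136, 219, 132 and 142 CPM in CIE rats 1 to 6 and at 129, 124, 153, 216, 149 and 130 CPM in Control rats 7 to 12. CIE rats 2 and 4 and Control rat 10 were far above the other 9 rats, and these are the 3 rats with the highest striatal marker level. The log2FC was 0.15 with the widest interval of the 9 genes, -0.22 to 0.51 (SE 0.17, FDR = 0.874). It was 0.039 without CIE rat 2, 0.054 without CIE rat 4 and 0.28 without Control rat 10. In fits added after the values were seen, the log2FC of *Mgll* was 0.024 (SE 0.071, 95% interval -0.13 to 0.18, FDR = 0.932) with the striatal marker level as a covariate. It was 0.020 (SE 0.076, FDR = 0.986) without those 3 rats. The part of the striatal marker RNA in the *Mgll* level was not tested in another way. As they form a cluster of their own, the relation of *Mgll* to the striatal markers is given for the other 9 rats, with r = 0.77 (exact permutation p = 0.0140, 0.270 adjusted over 90 relations) and rho = 0.83 (exact permutation p = 0.00827). Without the 2 of them farthest from the median it was 0.45.

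*Abhd12*, which encodes a serine hydrolase best known for degrading lysophosphatidylserine and, to a smaller extent, 2-AG, was between 171 and 205 CPM in the CIE group (median 189) and between 189 and 207 CPM in the Control group (median 199). CIE rats 1, 4 and 6 were below every Control rat, and the log2FC was -0.079 (SE 0.061, FDR = 0.801), or -0.051 without CIE rat 6 and -0.038 with the glutamatergic covariate. The interval, -0.21 to 0.053, was the narrowest of the 9 genes. *Faah*, the anandamide-degrading hydrolase, was between 19.7 and 29.5 CPM in the CIE group (median 21.8) and between 18.6 and 23.0 CPM in the Control group (median 21.0). Its log2FC was 0.13 (SE 0.100, 95% interval -0.085 to 0.34, FDR = 0.798), and without CIE rat 1, which was the highest, it was 0.045. With the glutamatergic marker level as a covariate it was 0.0088 (SE 0.088, FDR = 0.996). *Faah* followed these markers across the 12 rats, with r = 0.75 (permutation p = 0.00232, 0.0586 adjusted over 90 relations) and rho = 0.71 (permutation p = 0.0117, adjusted 0.168), and r = 0.50 without the 2 rats farthest from the median. Within the groups r was 0.67 in the CIE and 0.82 in the Control rats, and over the 9 rats it was 0.93 (exact permutation p = 0.00167, adjusted 0.150). Over the same 9 rats rho was 0.77, and without the 2 of them farthest from the median r was 0.64.

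**Figure D2:**
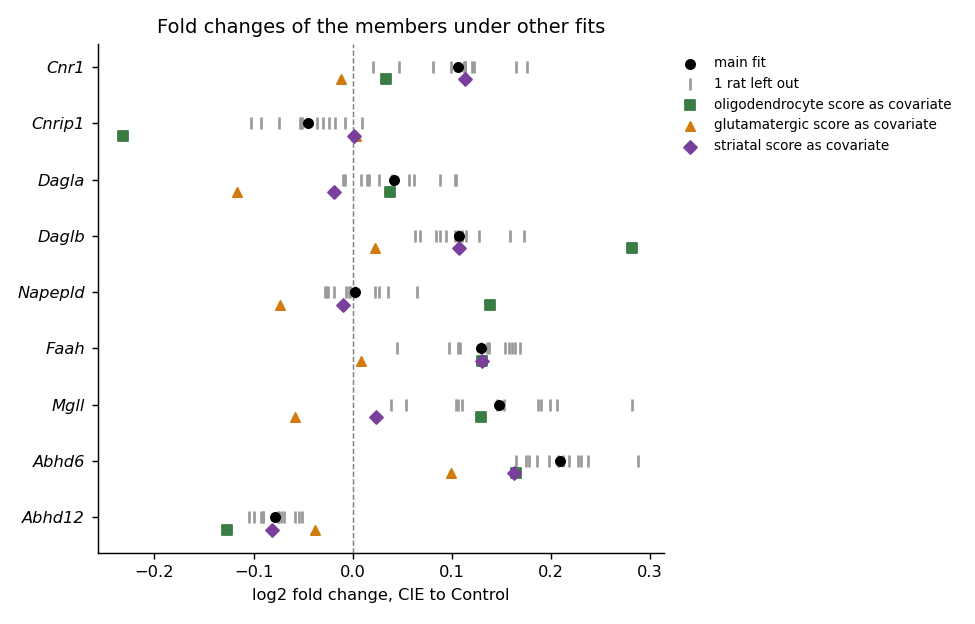
Log2 fold change of each member between CIE and Control, with the reported fit as black circles, the fits with 1 rat left out as grey ticks, and fits with a marker level as covariate as coloured symbols. *Abhd6*, *Daglb* and *Faah* stay above 0 and *Abhd12* stays below 0 in all of them. *Cnr1*, *Cnrip1*, *Dagla*, *Napepld* and *Mgll* fall on the other side of 0 with the glutamatergic markers as covariate.

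The balance between synthesis and breakdown was described within each rat, since a ratio of 2 genes in 1 library does not depend on the total count. The log2 ratio of *Dagla* to *Mgll* was -0.66 ± 0.23 (SD, n = 6) in the CIE group and -0.56 ± 0.18 (SD, n = 6) in the Control group. That of *Napepld* to *Faah* was -0.39 ± 0.25 with CIE and -0.27 ± 0.18 with air (SD, n = 6 each). The differences between the groups, -0.11 and -0.12, were smaller than either SD, and the ranges overlapped. Single rats moved both: the first was -0.056 without CIE rat 2, -0.068 without CIE rat 4, -0.065 without Control rat 7, -0.16 without Control rat 10 and -0.17 without CIE rat 1. The second was -0.055 without Control rat 11, -0.057 without CIE rat 1, -0.074 without CIE rat 3 and -0.18 without CIE rat 2. The lowest ratios of *Dagla* to *Mgll* were those of CIE rats 2 (-0.91) and 4 (-0.85) and Control rat 10 (-0.83), the rats highest in striatal markers. The part of the striatal marker RNA in this ratio was not tested. These ratios compare rats and not genes, because the counts were not scaled by transcript length.

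The members were then compared with each other across the 12 rats on log2 CPM. Of 36 pairs, 23 had a positive and 13 a negative Pearson's r, and none passed 5% after adjustment over the 36 pairs. The highest values were those of *Dagla* with *Mgll* (r = 0.79, permutation p = 0.00183, adjusted 0.0656, rho = 0.66, permutation p = 0.0218), *Mgll* with *Abhd6* (r = 0.74, permutation p = 0.00547, adjusted 0.0656, rho = 0.64, permutation p = 0.0278) and *Dagla* with *Abhd6* (r = 0.71, permutation p = 0.00955, adjusted 0.0859, rho = 0.60, permutation p = 0.0429). Without the 2 rats farthest from the median they were 0.65, 0.58 and 0.56. All 3 were lower without CIE rats 2 and 4 and Control rat 10, since over the other 9 rats r was 0.30, 0.25 and 0.35. Without the 2 of these 9 farthest from the median, r was 0.26, 0.88 and 0.24. The value of *Mgll* with *Abhd6* thus depended on further rats. The lowest values were those of *Faah* with *Abhd12* (r = -0.76, permutation p = 0.00366, adjusted 0.0656, rho = -0.59, permutation p = 0.0493), *Daglb* with *Abhd12* (r = -0.66, permutation p = 0.0203, adjusted 0.146, rho = -0.50, permutation p = 0.106) and *Cnrip1* with *Mgll* (r = -0.58, permutation p = 0.0454, adjusted 0.254, rho = -0.51, permutation p = 0.0937). Without the 2 rats farthest from the median these were -0.55, -0.46 and -0.72, and over the 9 rats -0.78, -0.65 and -0.21. Within the groups, *Faah* and *Abhd12* had an r of -0.77 in the CIE and -0.57 in the Control rats.

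**Figure D3:**
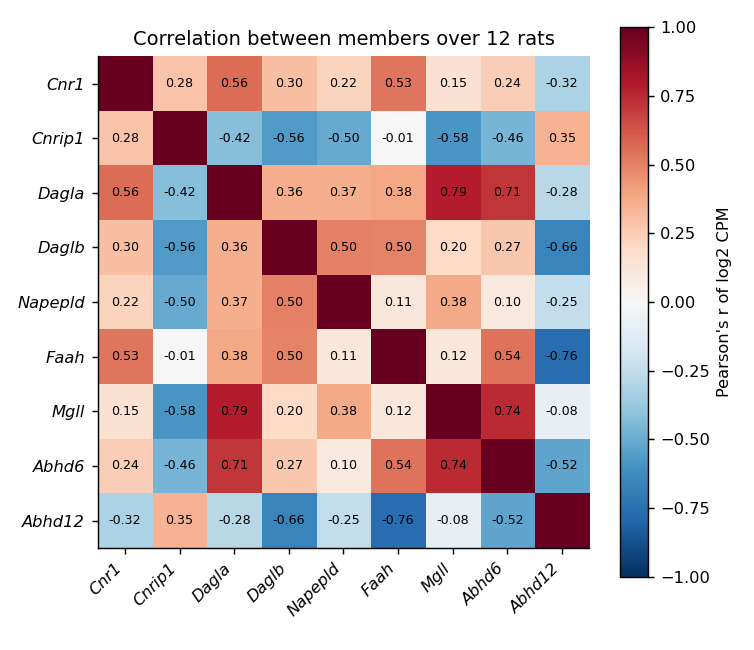
Pearson's r of log2 CPM between each pair of members over the 12 rats, with red for positive and blue for negative values and the diagonal left without numbers. *Dagla*, *Mgll* and *Abhd6* share the highest values (0.71 to 0.79), which rest on 3 rats, and *Abhd12* has the lowest with *Faah* (-0.76).

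Of 90 relations between a member and a marker list, 2 passed 5% after adjustment over the 90, that of *Mgll* with the striatal markers, which rests in part on the 3 rats that stand apart, and that of *Daglb* with the 3 GABA neuron markers *Gad1*, *Gad2* and *Slc32a1*. The latter was negative, with r = -0.84 (permutation p = 0.000720, adjusted 0.0324) and rho = -0.83 (permutation p = 0.00156, adjusted 0.0702), and r = -0.77 without the 2 rats farthest from the median. It was -0.84 in the CIE and -0.77 in the Control rats. Over the 9 rats without CIE rats 2 and 4 and Control rat 10 it was -0.86 (exact permutation p = 0.00379, adjusted 0.170), and none of the 90 relations passed 5% after adjustment over these 9 rats. The points share library depth and the composition of the punch, and the markers are themselves part of each CPM total.

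**Figure D4:**
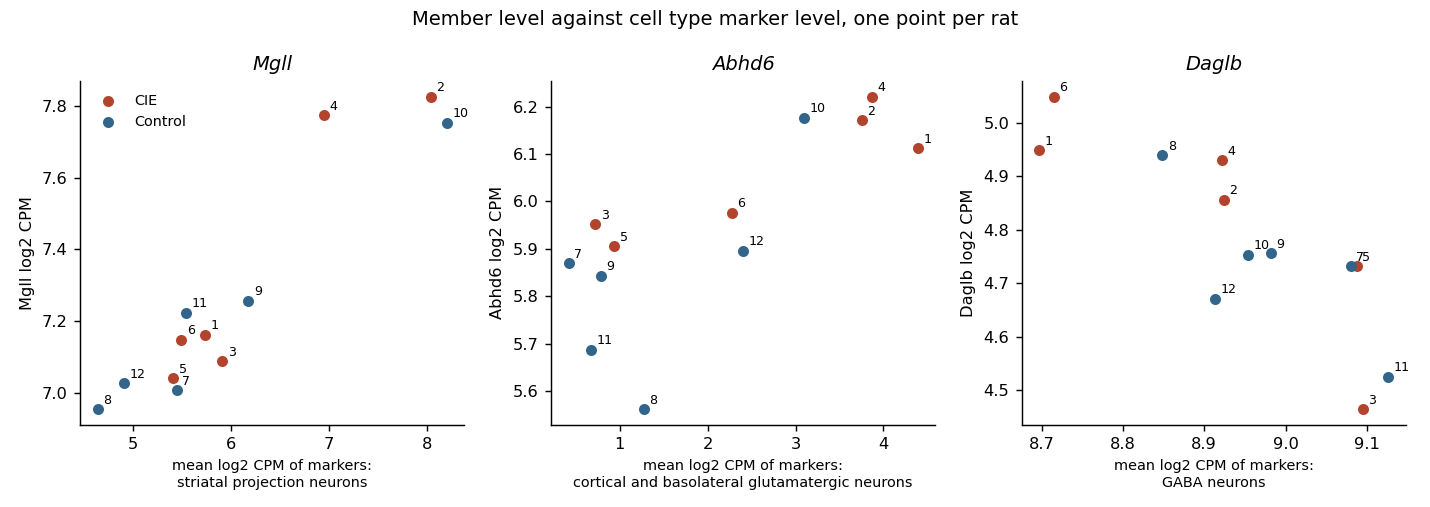
Log2 CPM of *Mgll*, *Abhd6* and *Daglb* (vertical axes) against the mean log2 CPM of markers of striatal projection, glutamatergic and GABA neurons (horizontal axes), with 1 numbered point per rat, CIE in red and Control in blue. *Mgll* is high in the 3 rats with the most striatal marker RNA, *Abhd6* is higher where glutamatergic markers are, and *Daglb* is lower where GABA markers are higher.

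The genes whose levels most resembled each member were searched among all tested genes at a mean of at least 1 CPM, as Pearson's r of log2 CPM over 12 rats with the group means removed. *Cnr1* was most like RGD1560408 (r = 0.97), *Ptprn2* (0.94) and *Slc6a17* (0.92), and *Cnrip1* most like *Ywhah* (0.97), *C2cd4c* (0.95) and *Atp6v1a* (0.93). For *Dagla* the 3 closest were *Kcnma1*, *Dlgap4* and *Grin2b*, all at 0.98, and for *Daglb* they were *Iqgap1* (0.96), *Col9a2* (0.93) and *Mertk* (0.92). *Napepld* was most like LOC100363332 (0.90), *Tdh* (0.89) and *Wac* (0.88), and *Faah* most like *Trabd2b* (0.94), *Rimbp2* (0.93) and *Yjefn3* (0.93). For *Mgll* they were *Adra2c* (0.97), *Ccdc85c* (0.96) and *Dgkb* (0.96), with 0.90, 0.53 and 0.91 over the 9 rats without CIE rats 2 and 4 and Control rat 10. *Abhd6* was most like *Erich3* (0.98), *Tmem164* (0.96) and *Cxadr* (0.96), with 0.97, 0.56 and 0.77 over the 9 rats, and *Abhd12* most like *Lamtor4* (0.94), LOC103689992 (0.94) and *Tceal6* (0.93). The closest of very many genes have a high r in any set of 12 rats, so these names are a description.

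A wider list of 50 genes was taken from the surroundings of the pathway, and 48 of them passed the filter on low counts. At a nominal p value below 0.05 there were 8 of them, 2 with a positive and 6 with a negative log2FC, beside 837 positive and 903 negative among the 20944 genes tested (8.31%). With library sizes that were not TMM-adjusted the share of positive ones among all nominal genes was 60.3%. The genes that fell at 5% FDR were 2 of the 48, against 0.258% of all genes. The list was chosen with earlier results of these data known, so these counts are a description and not a test of the pathway. The median log2 fold change of the 48 genes was near 0, at -0.00030, against 0.00096 over all genes tested.

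**Figure D5:**
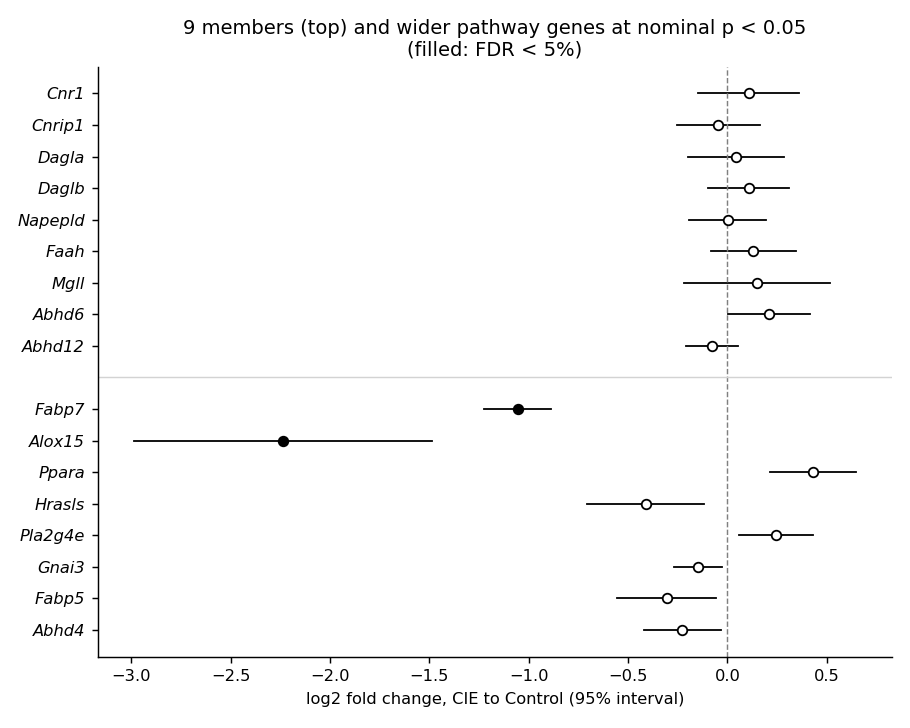
Log2 fold change between CIE and Control with 95% intervals for the 9 members (above the line) and the 8 wider pathway genes at a nominal p value below 0.05 (below the line, by p value), with filled circles for an FDR below 5%. The members lie between -0.079 and 0.21, while *Fabp7* and *Alox15* lie at -1.06 and -2.24.

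Among the other receptors for these lipids, *Ppara* was the only 1 of 7 tested at a nominal p value below 0.05. It encodes PPAR alpha, a nuclear receptor for fatty acids and for the anandamide relatives palmitoylethanolamide and oleoylethanolamide. *Ppara* was between 10.01 and 14.5 CPM in the CIE group (median 12.6) and between 8.90 and 10.2 CPM in the Control group (median 9.12), with 5 of 6 CIE rats above every Control rat. The exact permutation test of the group means of log2 CPM gave p = 0.00433, and the log2FC was 0.43 (SE 0.10, FDR = 0.118). It stayed between 0.39 and 0.49 and at a nominal p value below 0.05 in all 23 alternative fits, and passed 5% FDR in 2 of them. The CB2 receptor gene *Cnr2* was scarce, with 40 to 135 counts per rat, and ranged from 0.615 to 2.09 CPM in the CIE group and from 1.04 to 1.65 CPM in the Control group (log2FC 0.056, SE 0.27). *Gpr55*, at 2 to 53 counts per rat, and *Trpv1*, which encodes a cation channel that anandamide can open, at 73 to 304 counts, had a log2FC of 0.28 (SE 0.49) and -0.059 (SE 0.25). At this depth the 95% interval of *Gpr55* ran from -0.77 to 1.34. *Gpr18* had 0 counts in every rat.

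Of 10 genes for other routes to N-acylethanolamines, the lipid class of anandamide, 1 with a positive and 2 with a negative log2FC had a nominal p value below 0.05. *Pla2g4e*, which encodes a calcium-dependent N-acyltransferase that makes the NAPE precursor, was between 16.9 and 22.7 CPM in the CIE group (median 19.9) and between 14.3 and 18.8 CPM in the Control group (median 16.7), a log2FC of 0.24 (SE 0.087, FDR = 0.427). With the oligodendrocyte marker level as a covariate it was 0.11, and without CIE rats 2 and 4 and Control rat 10 it was 0.19, both with no nominal call. *Hrasls*, now named *Plaat1*, encodes another N-acyltransferase and went the other way, with 3.25 to 5.84 CPM (median 5.05) against 5.74 to 7.18 CPM (median 6.36) and a log2FC of -0.41 (SE 0.14, FDR = 0.371). In this gene 5 of 6 CIE rats were below every Control rat, but the nominal call was lost, at a log2FC of -0.28, with the glutamatergic marker level as a covariate. *Abhd4*, whose product removes an acyl chain from NAPE on a route that does not need NAPE-PLD, had a log2FC of -0.23 (SE 0.091, FDR = 0.510). It was between 59.4 and 85.3 CPM (median 65.7) against 73.6 and 89.7 CPM (median 79.8). With the oligodendrocyte marker level as a covariate it was -0.096, and the nominal call was also lost with library sizes that were not TMM-adjusted (-0.21), with the glutamatergic marker level (-0.15) and without CIE rat 1 (-0.19), 2 (-0.20) or 4 (-0.20) or Control rat 8 (-0.18) or 11 (-0.21). It was lost as well without CIE rats 2 and 4 and Control rat 10 together (-0.17).

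Of the 4 genes for other breakdown that were tested, *Alox15*, a lipoxygenase gene whose product oxidizes arachidonoyl lipids, fell from 4.52 to 18.6 CPM (median 7.18) in the Control group to 1.13 to 2.71 CPM (median 1.92) in the CIE group, without overlap (0.893% of all genes had none). The log2FC was -2.24 (SE 0.35, FDR = 0.0134), and it passed 5% FDR in 20 of 23 alternative fits, the exceptions being limma-voom (log2FC -2.14, FDR = 0.0581), the oligodendrocyte covariate (-1.91, FDR = 0.187) and the fit without CIE rats 2 and 4 and Control rat 10 (-2.15, FDR = 0.0899). The hemoglobin genes *Hbb-b1* (log2FC -1.84), *Hba2* (-1.74), *Hba1* (-1.65) and *Hbb* (-1.61) were also lower in the CIE group at 5% FDR. Whether the blood content of the punches had a part in the *Alox15* value was not tested. *Naaa*, whose product hydrolyzes palmitoylethanolamide in lysosomes, had a log2FC of 0.063 (SE 0.11), and *Ptgs2*, the cyclooxygenase that can oxidize 2-AG and anandamide, one of 0.39 (SE 0.38, FDR = 0.844). Among the 4 lipid carrier genes, whose products can move anandamide through the cytosol, *Fabp7* fell from 32.8 to 38.1 CPM in the Control group to 14.6 to 20.8 CPM in the CIE group (log2FC -1.06, SE 0.079, FDR = 2.64e-05), again without overlap. *Fabp5* had a log2FC of -0.31 (SE 0.12, FDR = 0.466), with 5 of 6 CIE rats below every Control rat, and its nominal call was lost with the glutamatergic covariate (-0.22), without Control rat 8 (-0.24) and without CIE rats 2 and 4 and Control rat 10 (-0.21).

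The 10 genes for G proteins and partners of CB1 held 1 at a nominal p value below 0.05, *Gnai3*, which encodes an inhibitory G protein alpha subunit. It was between 33.6 and 37.3 CPM in the CIE group (median 35.1) and between 34.8 and 41.0 CPM in the Control group (median 40.5), a log2FC of -0.15 (SE 0.056, FDR = 0.462), and this call too was lost with the oligodendrocyte covariate and without the 3 rats rich in striatal markers (-0.14 in both). No gene of the 6 that supply diacylglycerol and none of the 7 for receptors that drive 2-AG release and partners of DAGL alpha had a nominal p value below 0.05 in edgeR. Of the latter, 5 had a larger SE than any member, among them *Camk2a* (0.24), *Grm5* (0.22) and *Homer1* (0.30).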

How the data were processed

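CeA punches of 12 rats were sequenced as poly-A enriched libraries. The authors mapped the paired reads to Rnor_6.0 with BWA, counted them per gene with HTSeq and deposited the raw counts of all genes. The annotation and the strand and overlap settings are not given in the sources used here, so overlapping genes cannot be told apart. All fits were made with edgeR 4.0.16 under R 4.3.3 (TMM, filterByExpr, two-sided quasi-likelihood F test without covariates), and DESeq2 1.42.0, limma 3.58.1 and sva 3.50.0 served for alternatives. FDR values of fits on all 12 rats with the main filter are Benjamini-Hochberg adjusted over 20944 genes. Those of fits with rats left out are adjusted over the genes that passed the filter in that fit. SE was obtained as the absolute log2FC over the root of F. CPM uses TMM-normalized library sizes, and log2 CPM a prior count of 2. Exact permutation tests over 924 splits of the rats cannot give a p below 0.00216, and correlations used 100000 permutations over 12 rats and all orders over 9. On counts simulated for this comparison, edgeR recovered 136 of 200 genes changed by 1 on the log2 scale, with 3 false calls among 20688 genes, and 95.3% of the intervals covered the true value. For each 2 rats of a group, the squared deviation of counts was divided by its Poisson variance and averaged over genes. The lowest such ratio was 17.5 (Control rats 9 and 11), so no 2 libraries were taken as repeats of each other and all 12 were counted as separate replicates. The paper reports housing of 3 rats to a cage. The cage of each rat is not in the labels used here, so it could not be included in the fits.

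The members, the wider list and the marker lists were chosen with earlier results of these data known. Genes named from the wider list are those at a nominal p value below 0.05 and *Cnr2*, *Gpr55*, *Trpv1*, *Naaa* and *Ptgs2*. *Camk2a*, *Grm5*, *Homer1* and *Gpr18* were named after their values were seen. Likeness was given for the 3 closest genes of each member. Promoter sequences are from RefSeq (GRCr8), a later build than that of the counts, and the motifs were chosen after the counts were seen. Each rat was left out in turn, and other normalizations, filters, tests and marker covariates were tried. Fits with the striatal marker level, or without the 3 rats that were highest in it, were added after the values were seen.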

Additional observations from a re-analysis of the deposited data

Results flagged for a closer look

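In 42 sets of 6 rats (each member, ratio and marker level in each group), the rat farthest from its group was compared with Dixon's 95% critical value, which chance passes in about 1 of 20 sets. This was the case for 3 sets. *Mgll* in Control rat 10 was at 216 CPM, with the next Control rat at 153 CPM. *Napepld* in CIE rat 3 was at 13.6 CPM, with the next CIE rat at 17.4 CPM. The mean level of the 8 general neuron markers in CIE rat 6 was 8.70 on the log2 CPM scale, with the next CIE rat at 8.83.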

How the results depend on the processing

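No member reached 5% FDR in any of the 23 alternatives. The number of members at a nominal p value below 0.05 was 0 with the glutamatergic marker level as a covariate and 0 at a nominal p value below 0.01, and 0 to 2 when a rat was left out. The wider list gave 17 genes under limma-voom with sample quality weights, 5 without the 3 striatal-rich rats, and 6 to 13 when a rat was left out. Over all genes, 5% FDR was reached by 286 in DESeq2, 234 in limma-voom, 31 and 40 with the oligodendrocyte and glutamatergic marker levels as covariates, 34 without the 3 striatal-rich rats, and 34 to 154 when a rat was left out. The nominal count was 3596 in limma-voom, 559 at 0.01, and 1347 to 2811 when a rat was left out. The log2 fold changes of 5 members changed sign. With the glutamatergic marker level as a covariate these were *Cnr1* (-0.012), *Cnrip1* (0.0032), *Dagla* (-0.12), *Napepld* (-0.073) and *Mgll* (-0.058). With 1 surrogate variable they were *Cnrip1* (0.0063), *Dagla* (-0.041) and *Napepld* (-0.019), and with the striatal marker level *Cnrip1* (0.0014), *Dagla* (-0.019) and *Napepld* (-0.010). Without the 3 striatal-rich rats *Dagla* was at -0.020 and *Napepld* at -0.011, and without a filter *Napepld* was at -0.0032. When a rat was left out, *Cnrip1* lay between -0.10 and 0.0099, *Dagla* between -0.0092 and 0.10 and *Napepld* between -0.028 and 0.065. The cause of these changes was not tested. No paired analysis was possible because the rat numbers 1 to 12 are not shared between the groups.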

Other observations

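Within the groups, the 36 pairs of members gave 72 correlations over 6 rats each, none of which passed 5% after adjustment over the 72. The negative relation of *Daglb* and *Abhd12* in the CIE rats (r = -0.87, exact permutation p = 0.00694, adjusted 0.200) had the same order in all 6 rats reversed (rho = -1, exact permutation p = 0.00278), and the value in the Control rats was 0.19 (exact permutation p = 0.746). *Cnr1* and *Mgll* had an r of -0.96 in the Control rats (exact permutation p = 0.00833, adjusted 0.200) and of 0.37 in the CIE rats (exact permutation p = 0.547). *Cnr1* and *Dagla* had an r of -0.90 in the Control rats (exact permutation p = 0.0236, adjusted 0.283) and of 0.84 in the CIE rats (exact permutation p = 0.0639, adjusted 0.350). The differences between the groups were not tested, and in the Control group these values include rat 10.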
